A study of Homo sapiens with 10 samples.

Results

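The general protein-folding machinery of HCT116 cells, a human colorectal carcinoma line, was followed through 37 genes: the TRiC ring, prefoldin, HSP90 and its cofactors, mitochondrial chaperones, J-domain proteins and the BAG family. The genes were taken by symbol from a fixed list of cytosolic and mitochondrial chaperones and HSP90 cofactors that leaves out the inducible HSP70 set. All 37 were found among the 57993 gene symbols of the tables, each at 1 locus. All 37 also passed the filter on low values, which 17779 genes passed.

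The study's title concerns methylation of the histone demethylase KDM5A by the methyltransferase SMYD2. RNA was measured in 10 libraries. In 8 of them the source was HCT116 KDM5A-/- cells, of which 3 had received empty vector, 3 had received wild-type KDM5A on a plasmid and 2 had received mutant KDM5A. The remaining 2 came from parental HCT116 cells with empty vector. Which residue the mutant changes is not stated. Every culture was transfected, and GFP-positive cells were sorted 24 hours later, so all groups share transfection and sorting. The knockout cells were a purchased line and their medium alone held G418, so genotype, clone and drug cannot be told apart in the comparison with parental cells. Nothing in the labels tells whether replicates were separate cultures, so p-values here measure only the spread between libraries, which may be technical.

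Most newly made proteins fold with help. Prefoldin hands unfolded actin and tubulin to TRiC (also called CCT), a double ring built from different subunits that closes around its client. HSP70 proteins bind exposed stretches of many clients, J-domain proteins bring the clients and start the ATP cycle, and BAG proteins release the nucleotide. HSP90 then matures kinases, steroid receptors and other clients with a set of cofactors, while HSPD1 and HSPE1 form the folding chamber of mitochondria. Cancer cells generally express this machinery at a high level. Part of it is also driven by the heat shock factor HSF1, which binds inverted repeats of the letters GAA.

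Values are the deposited FPKM-type values, turned back to the linear scale and divided by 1 factor per library (scaled values). Read depth is unknown. Each fold change is a difference of log2(scaled value + 1), and passing means an adjusted p below 0.05 in limma over all 17779 genes. Some libraries stood apart in make-up. Both mutant libraries and parental library 2 had 15.9 to 16.5% of their total in 87 ribosomal protein genes, against 12.9 to 14.2% in the other 7 libraries. The scaling factors of the mutant libraries, 0.844 and 0.871, were below the 0.964 to 1.11 of all others. KDM5A itself stood at 12.2 to 15.3 with empty vector, 13452 to 16237 with the wild-type plasmid, 22816 to 23346 with the mutant plasmid and 13.3 to 17.7 in parental cells, so this whole-gene value does not check the knockout label. Of 8 colon epithelial markers 6 reached 1 in a library, among them EPCAM at 271 to 389 and KRT18 at 858 to 1310, while VIL1 and LGALS4 stayed under 1. The summed epithelial markers were 4122 to 4170 with empty vector, 4361 to 4609 with wild-type KDM5A, 5095 to 5616 with mutant KDM5A and 3850 to 4434 in parental cells. The summed markers of other cell types lay between 18.3 and 30.5 in all libraries, most of it COL1A1 at 13.5 to 28.7. The part of library make-up and markers in the results was not tested. In a bulk sample, fewer cells of a type and less RNA per cell cannot be told apart.

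Some chaperone genes carry a long form of the HSF1-type letters just upstream of a start site. These stretches are shown because both HSP90 genes and several cofactors rose with mutant KDM5A on the scaled values. Promoter windows from RefSeq (GRCh38.p14), 250 bases before each start, were found for 32 of the 37 genes. CCT6A, FKBP4, HSPA14, PFDN2 and STUB1 had no entry. Each line gives 30 bases, 5′ to 3′ on the gene's strand, with the matching letters in capitals.
CHORDC1 (chr11:90223083-90223112, minus strand): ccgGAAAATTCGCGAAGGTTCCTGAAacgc
DNAJB6 (chr7:157336865-157336894, plus strand): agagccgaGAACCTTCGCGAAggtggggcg
HSP90AA1 (chr14:102087104-102087133, minus strand): cTTCCGGAAGGTTCgggaggcTTCTGGAAa
HSP90AB1 (chr6:44247823-44247852, plus strand): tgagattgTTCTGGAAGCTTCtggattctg
HSPD1 (chr2:197500061-197500090, minus strand): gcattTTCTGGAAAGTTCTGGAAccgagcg
DNAJB4 (chr1:78004830-78004859, plus strand): agcatttgctgTTCTAGAAagtacagagac
The first 5 hold GAANN followed directly by TTCNNGAA, on one strand or the other, and DNAJB4 holds only the shorter TTCNNGAA, which reads the same on both strands and lies inside the longer motif. The longer motif was found for 5 of the 32 genes (15.6%) against 0.556% of 27167 genes in the table, and the shorter one for 6 of 32 (18.8%) against 8.12%. AHSA1, PFDN5 and DNAJA1 had no match in the 250 bases searched. Their changes with mutant KDM5A were 0.72, 0.67 and 0.65, and those of HSP90AB1 and HSP90AA1 were 0.56 and 0.52. Whether the letters bear on these changes was not tested. A match of letters is a description and not a bound site.

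FPKM-type values are per transcript length, so levels can be set side by side between genes. Averaged over the 10 libraries, HSP90AB1 was the most abundant at 2129, followed by its close relative HSP90AA1 at 1124 and by HSPD1 at 813, and BAG2 was the lowest at 13.3. HSP90AB1 exceeded HSP90AA1 by 1.75 to 2.01 times in every library. Within a library, the highest of the 8 TRiC subunits was at least 1.95 times the lowest. Pooled over the libraries their order by mean was CCT7 (467), CCT5 (442), TCP1 (427), CCT3 (417), CCT2 (325), CCT8 (301), CCT6A (271) and CCT4 (231.5), and CCT4 was the lowest in each of the 10 libraries. No single group had this exact order, as TCP1 changed place: its mean was 415 against 413 for CCT5 with empty vector, 499 against 494 for CCT7 with wild-type KDM5A, and below CCT3 with mutant KDM5A (411 against 469) and in parental cells (352 against 382). Prefoldin subunits ran from 94.0 (PFDN1) to 373 (PFDN5), HSP90 cofactors from 119 (CHORDC1) to 426.5 (PTGES3), J-domain proteins from 34.0 (DNAJB4) to 148 (DNAJA1), and the BAG family with STUB1 from 13.3 (BAG2) to 79.2 (STUB1).

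**Figure D1:**
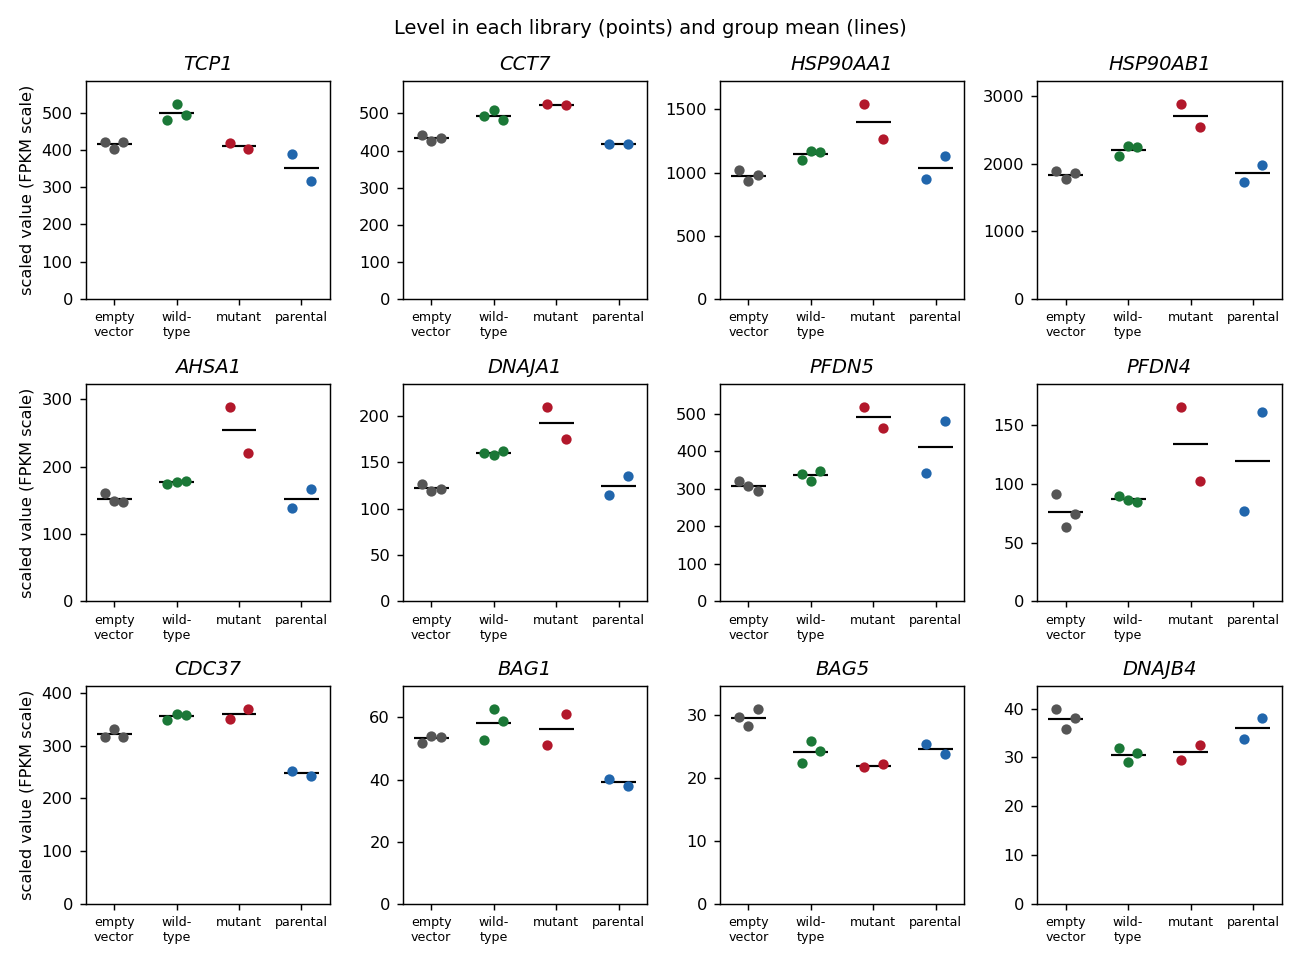
Scaled value (linear axis from 0) of 12 chaperone genes in each of the 10 libraries, 1 panel per gene. Points are libraries, lines are group means. DNAJA1 stood above the empty-vector libraries with either KDM5A plasmid, CDC37 and BAG1 were lowest in parental cells, and in PFDN5 and PFDN4 parental library 2 stood near the mutant libraries.

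The first comparison asked what wild-type KDM5A did to these genes in knockout cells. DNAJA4, DNAJA1 and CCT7 rose and no gene fell. That is 3 of 37 (8.11%), beside 4.54% of all genes tested that passed, 2.52% higher and 2.02% lower. Among genes with a mean of at least 100, 10.7% rose, and 2 of the 25 chaperone genes at that level did. On the values as deposited 1 of the 37 was higher, DNAJA1, and 2 were lower, DNAJB4 and BAG5, and after quantile normalization DNAJA1 alone passed. The median change of the 37 was 0.14 against 0.00 for all genes, with a range of -0.30 to 0.40. This median was 0.03 under either other scaling. Relative to the median of all genes under the same scaling, the 37 lay 0.14 higher in the main fit. They lay 0.13 higher as deposited and 0.03 higher after quantile normalization. Without adjustment 14 of the 37 were higher and 3 lower at p under 0.05, beside 20.5% of all genes in either direction. The wild-type libraries lay wholly above the empty-vector ones in 21 genes and wholly below in 5, where all genes gave 16.4% and 16.2%.

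DNAJA1, a cytosolic J-domain partner of HSP70 (chromosome 9, 33025210 to 33039907, GRCh38 as in the tables), stood at 126, 119 and 121 with empty vector and at 160.4, 158 and 163 with wild-type KDM5A. The groups did not overlap, and the difference passed the test (log2 fold change 0.39, SE 0.08, adjusted p = 0.0293). DNAJA4, another member of the same class (chromosome 15, 78264085 to 78282196), went from 72.7, 79.5 and 74.6 to 97.9, 96.9 and 105, again without overlap (log2 fold change 0.40, SE 0.07, adjusted p = 0.02). The TRiC subunit CCT7 (chromosome 2, 73233419 to 73253021) went from 441, 426 and 435 to 492, 508 and 482 (log2 fold change 0.19, SE 0.04, adjusted p = 0.037). Each of the 3 calls was lost when any one of the 6 libraries compared was left out, and only DNAJA1 also passed with the values as deposited and with quantile normalization.

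No other TRiC subunit passed. TCP1, the founding subunit (chromosome 6, 159778497 to 159789749, a locus that overlaps ACAT2), was 422, 403 and 420.1 with empty vector and 479.6, 522 and 494 with wild-type KDM5A (log2 fold change 0.26, SE 0.07, adjusted p = 0.0842). For CCT4 the values were 224, 194 and 204 with empty vector and 237, 252 and 252 with the wild-type plasmid (log2 fold change 0.25, SE 0.06, adjusted p = 0.0597). In 6 of the 8 subunits the wild-type libraries lay wholly above the empty-vector ones, beside 16.4% of all genes. On the values as deposited CCT3 and CCT5 overlapped as well. On the scaled values only CCT6A and CCT8 overlapped. CCT6A stood at 282, 260.1 and 277 against 288, 306 and 262, and CCT8 at 307, 270.1 and 276 against 302, 308 and 309.

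HSP90 and its cofactors showed the same separation at a small size. All 6 cofactors and both HSP90 genes were higher in every wild-type library than in any empty-vector library, yet none passed, and on the values as deposited CDC37, PTGES3 and FKBP4 overlapped. HSP90AB1, the constitutive cytosolic HSP90, was 1890.3, 1772 and 1858 with empty vector and 2110, 2268 and 2253 with wild-type KDM5A (log2 fold change 0.26, SE 0.07, adjusted p = 0.0776). HSP90AA1, the more stress-responsive form, was 1017, 932 and 979.9 in the controls and 1102, 1174 and 1160 with the wild-type plasmid (log2 fold change 0.23, SE 0.09, adjusted p = 0.186). The co-chaperone CHORDC1 had the largest difference of the cofactors (log2 fold change 0.29, SE 0.08, adjusted p = 0.0708). No prefoldin, mitochondrial, HSP70-family or BAG gene passed. The lowest changes were those of DNAJB4, a J-domain protein (log2 fold change -0.30, SE 0.07, adjusted p = 0.0559), and BAG5, a nucleotide exchange factor of HSP70 (log2 fold change -0.28, SE 0.07, adjusted p = 0.0584). As deposited both passed as lower, DNAJB4 at -0.41 (adjusted p = 0.0254) and BAG5 at -0.39 (adjusted p = 0.0409).

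The count of genes that passed moved with which libraries shared the fit. All 10 libraries set the spread in the fit above. Without both mutant libraries and parental library 2, 15 genes rose and 1 fell, beside 9.51% of all genes that passed, 5.37% higher and 4.14% lower. The 15 were TCP1, CCT4, CCT5, CCT7, PFDN2, HSP90AA1, HSP90AB1, STIP1, AHSA1, CDC37, CHORDC1, HSPD1, HSPE1, DNAJA1 and DNAJA4, and the 1 was DNAJB4. Leaving out either mutant library gave 5 genes, leaving out either parental library gave 7, and leaving out any empty-vector or wild-type library gave 0, with 12 to 15 at an unadjusted p under 0.05.

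**Figure D2:**
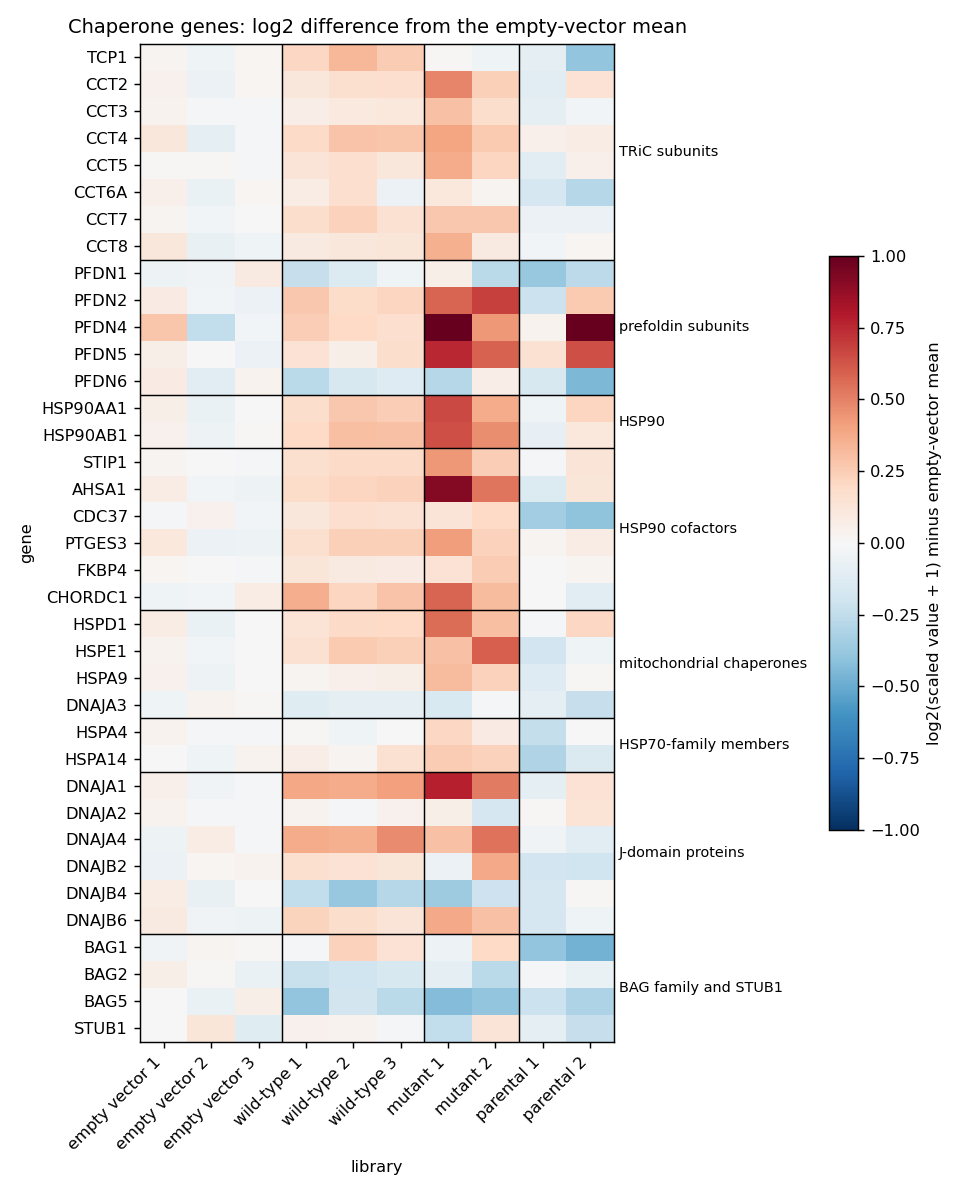
Difference of each of the 10 libraries from the empty-vector mean, on the log2(scaled value + 1) scale, for the 37 chaperone genes grouped by role. The colour scale ends at -1 and 1, so larger differences have the end colour. The 2 mutant columns are mostly higher, the BAG rows are mostly lower, and parental library 2 has higher PFDN2, PFDN4 and PFDN5 than parental library 1.

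The second comparison set mutant KDM5A against empty vector in the same knockout cells and shares the empty-vector libraries with the first. Here 21 genes rose (56.8%) and 2 fell, beside 16.5% of all genes that passed, 9.48% higher and 7.05% lower. The median change was 0.27 against -0.01 for all genes, with a range of -0.41 to 0.78. The 2 mutant libraries lay wholly above the empty-vector ones in 24 genes and wholly below in 3, beside 23.3% and 23.6% of all genes. The direction of the group depended on the scaling: on the values as deposited the median was -0.07, with 5 genes higher and 11 lower, and after quantile normalization it was -0.05, with 3 higher and 2 lower. Under those scalings the median of all genes shifted to -0.30 for the values as deposited, so the 37 genes then lay 0.23 above it, while after quantile normalization they lay 0.02 below. The shares of all genes that passed under those scalings are not given here for any comparison. Counts under them are therefore not shown to be particular to the 37 genes. AHSA1, DNAJA1 and PFDN5 rose and BAG5 fell under all 3 scalings.

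Abundant genes as a whole were higher in the mutant libraries, and most of the 37 are abundant. Among the 1652 genes with a mean of at least 100 the median change was 0.22 and 44.4% rose, and among the 25 chaperone genes in that range it was 0.33 and 19 rose. In genes with a mean of 10 to 100 the median was -0.02, and for the 12 chaperone genes there it was -0.06, with 2 higher. Among the 145 genes with a mean of at least 1000, which include both HSP90 genes, the median was 0.53 and 89% rose. With wild-type KDM5A the medians over a mean of 100 were 0.11 for all genes and 0.18 for the 25.

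**Figure D3:**
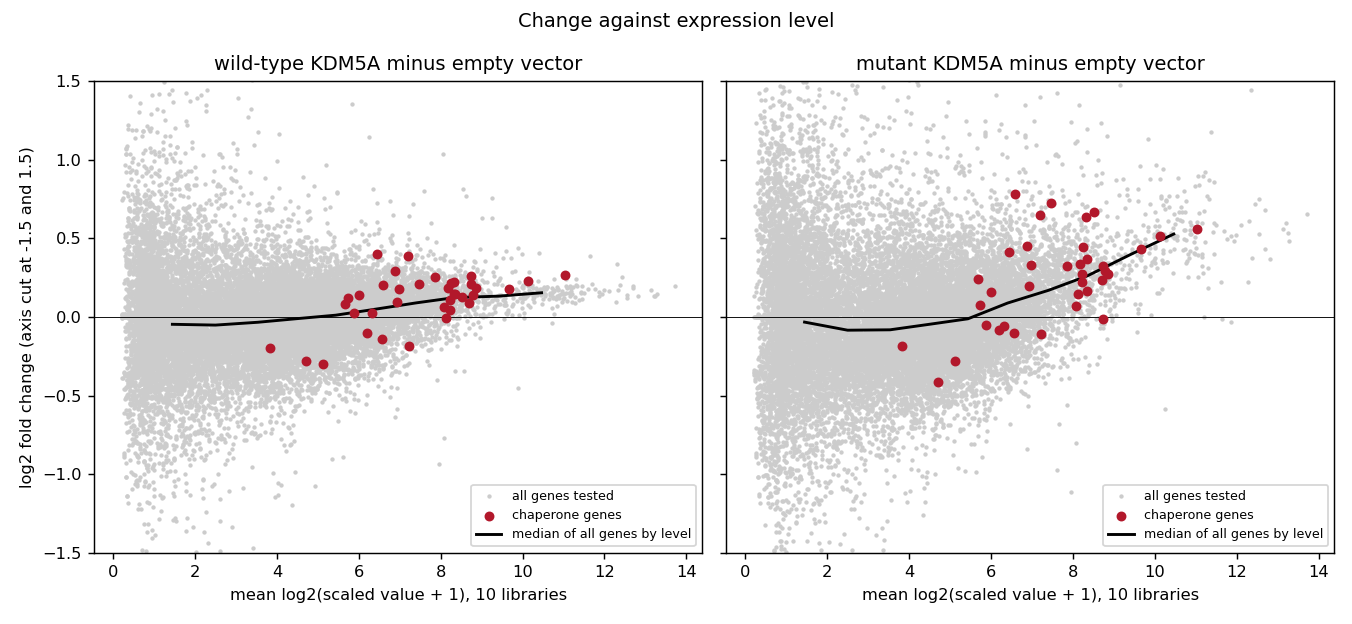
Log2 fold change against empty vector (vertical axis, which leaves out the most extreme of all genes) by mean scaled value (horizontal log axis) for wild-type and mutant KDM5A. Grey points are all genes tested, red points are the 37 chaperone genes, the black line is the median of all genes by level. With mutant KDM5A the line climbs at high levels, and the median for genes with a mean of at least 100 was 0.22.

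Of the 8 TRiC subunits 5 rose with mutant KDM5A, but none rose on the values as deposited or after quantile normalization, where the median of the 8 was -0.09 and -0.10. CCT7 was 524 and 524 in the mutant libraries, above all 3 empty-vector libraries (log2 fold change 0.27, SE 0.04, adjusted p = 0.00756). CCT5 went from 416, 416 and 407 to 534 and 479.5 (log2 fold change 0.29, SE 0.06, adjusted p = 0.0184). CCT3 went from 408, 392 and 394 to 487 and 451 (log2 fold change 0.23, SE 0.05, adjusted p = 0.0182), and all of these lay apart from the controls.
CCT2 and CCT4 also rose, CCT2 from 306, 285 and 301 to 418 and 351 (log2 fold change 0.37, SE 0.09, adjusted p = 0.0278) and CCT4 from 224, 194 and 204 to 272 and 248 (log2 fold change 0.33, SE 0.07, adjusted p = 0.0168). The remaining subunits overlapped the controls. TCP1 was 419.6 and 403 (log2 fold change -0.01, SE 0.08, adjusted p = 0.933), CCT6A 294 and 279 (log2 fold change 0.07, SE 0.07, adjusted p = 0.57) and CCT8 364 and 302 (log2 fold change 0.22, SE 0.08, adjusted p = 0.0995). On the values as deposited TCP1 passed as lower with mutant KDM5A (-0.35), as it did after quantile normalization (-0.37).

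Prefoldin split into subunits that were higher and subunits that were not. PFDN5 (chromosome 12, 53295290 to 53299450) stood at 319.6, 308 and 295 with empty vector and 518 and 462 with mutant KDM5A (log2 fold change 0.67, SE 0.12, adjusted p = 0.0104). PFDN2 (chromosome 1, 161100555 to 161118111) went from 296, 274 and 269 to 419.9 and 449 (log2 fold change 0.63, SE 0.12, adjusted p = 0.0104). Both were clear of every control library. PFDN4 had the largest change of all 37 genes but differed between the mutant libraries, 166 and 102 against 91.2, 63.1 and 74.0, and did not pass (log2 fold change 0.78, SE 0.30, adjusted p = 0.104). PFDN1 (-0.10, SE 0.10) and PFDN6 (-0.11, SE 0.12) did not pass either, and on the values as deposited both passed as lower. The prefoldin subunit VBP1, not among the 37, rose by 0.34, but its change was 0.00 on the values as deposited.

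Both HSP90 genes and 5 of 6 cofactors rose, against 1 of 2 and 1 of 6 on the values as deposited and 0 of 2 and 1 of 6 after quantile normalization. The median of the HSP90 pair, 0.54, was near the 0.53 of all genes with a mean of at least 1000. HSP90AB1 (chromosome 6, 44246165 to 44253888) was 2879 and 2541 in the mutant libraries (log2 fold change 0.56, SE 0.08, adjusted p = 0.00536), a change that was 0.22 as deposited and 0.00 after quantile normalization. HSP90AA1 (chromosome 14, 102080737 to 102139699) was 1540.2 and 1265 (log2 fold change 0.52, SE 0.10, adjusted p = 0.0119), and this change was 0.18 as deposited and -0.05 after quantile normalization. In both genes each mutant library was above all controls.
AHSA1, which speeds up the ATPase of HSP90 (chromosome 14, 77457869 to 77469474), had the largest change that passed. It stood at 161, 149.6 and 147 with empty vector, 174, 177 and 179 with wild-type KDM5A and 289 and 221 with mutant KDM5A (log2 fold change 0.72, SE 0.11, adjusted p = 0.00627 for mutant against empty vector). The 3 groups did not overlap, and the mutant libraries differed from each other more than the libraries within either other group. CHORDC1 went from 102, 103 and 110.0 to 158 and 131 (log2 fold change 0.45, SE 0.09, adjusted p = 0.0113). STIP1, which links HSP70 to HSP90 (0.34), PTGES3, the p23 cofactor that holds the closed form (0.32), and FKBP4, an immunophilin of steroid receptor complexes (0.20), rose less, and these 3 were below 0 on the values as deposited. CDC37, which delivers kinases to HSP90, just missed the threshold (log2 fold change 0.16, SE 0.05, adjusted p = 0.0508).

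Of the 4 mitochondrial chaperones 3 rose, the chamber genes HSPD1 and HSPE1 and HSPA9, and 0 passed as higher under either other scaling. HSPD1 was 760.2, 690.4 and 719.6 with empty vector and 1066 and 892 with mutant KDM5A (log2 fold change 0.43, SE 0.09, adjusted p = 0.0156), with -0.08 after quantile normalization. HSPE1, its lid, was 286, 273 and 277 in the controls and 340.4 and 421 in the mutant libraries (log2 fold change 0.44, SE 0.09, adjusted p = 0.0129). The 2 genes lie head to head on chromosome 2, with RefSeq start sites 105 or 539 bases apart, and as the strand setting is not stated, reads where their loci overlap cannot be told apart. HSPE1 has 26 named pseudogenes in the tables, which together held 6.80% of its own value, so its level is uncertain. HSPA9, the mitochondrial HSP70, rose by 0.27 (-0.07 as deposited and -0.05 after quantile normalization), and its J-domain partner DNAJA3 did not pass (-0.08, SE 0.06).

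Of the cytosolic HSP70 partners, DNAJA1 had the lowest adjusted p of the 37 genes. It stood at 210.1 and 176 with mutant KDM5A (log2 fold change 0.65, SE 0.09, adjusted p = 0.00419), above all wild-type libraries as well. DNAJA4 at 92.6 and 110.3 (log2 fold change 0.41, SE 0.08, adjusted p = 0.0122) lay above the controls but overlapped the wild-type libraries. DNAJB6, a suppressor of aggregation, rose by 0.33 (-0.01 as deposited). HSPA14, a ribosome-associated HSP70, rose by 0.24 (-0.09 as deposited), and HSPA4, an exchange factor of the HSP110 type, did not pass (0.15, SE 0.07).
The 2 genes that fell were named after their values were seen. BAG5 (chromosome 14, 103556543 to 103562831, a locus that overlaps KLC1) went from 29.6, 28.2 and 30.9 to 21.7 and 22.2 (log2 fold change -0.41, SE 0.08, adjusted p = 0.0114). DNAJB4 went from 39.9, 35.9 and 38.1 to 29.4 and 32.6 (log2 fold change -0.28, SE 0.08, adjusted p = 0.048) and no longer passed after quantile normalization. In both, the mutant libraries lay wholly below the controls. DNAJA2, DNAJB2, BAG1, BAG2 and the ubiquitin ligase STUB1 did not pass, with changes of -0.18 (BAG2) to 0.16 (DNAJB2). As deposited, DNAJA2 (-0.39), BAG2 (-0.50) and STUB1 (-0.39) passed as lower.

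All 5 genes with the longer GAA motif printed above rose with mutant KDM5A, with a median of 0.45, but on the values as deposited HSP90AB1 alone of these passed and after quantile normalization none did. All 5 have a mean of at least 100, where 44.4% of all genes rose. DNAJB4, which holds only the shorter motif, fell. Of the other chaperone genes, 13 of the 26 with no match in the table rose, with a median of 0.25. None of the 5 passed with wild-type KDM5A, where their median was 0.23 and that of the 26 was 0.14. The 26 leave out the 5 genes without a promoter entry. They include HSPE1, whose window (chr2:197500129-197500378) does not reach the nearby HSPD1 stretch at chr2:197500061-197500090. HSPD1 itself matched before its start site at 197499840 and not before the one at 197500274. The split into genes with and without a match thus depends on the window and start site used.

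The count depended on single libraries. Without mutant library 1, 9 genes passed, without empty-vector library 2 or 3, 13 passed each time, and AHSA1, CCT7, DNAJA1, DNAJA4, HSP90AB1, HSPE1 and PFDN2 passed whichever single library was left out. With the ribosomal protein share as a covariate, chosen after seeing the data, none of the 37 passed, with 9 at an unadjusted p under 0.05. In that fit only 15 genes of all those tested passed.

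**Figure D4:**
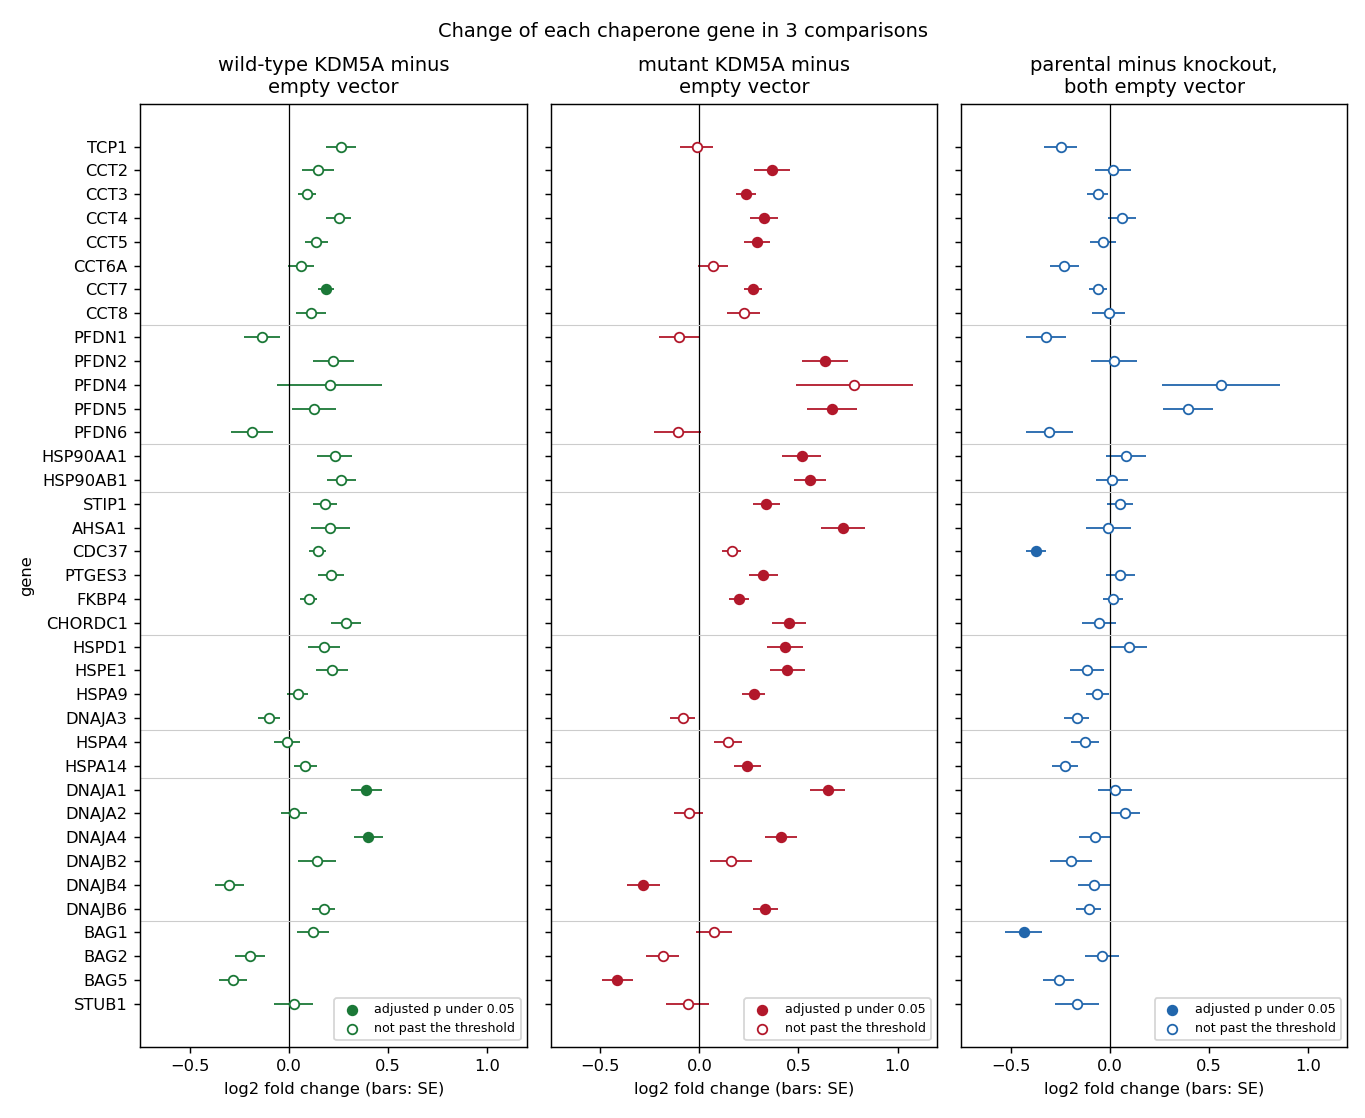
Log2 fold change with its standard error for the 37 chaperone genes in 3 comparisons, on the log2(scaled value + 1) scale. Filled points passed limma at an adjusted p under 0.05. With mutant KDM5A 23 points are filled, 21 of them to the right of 0, although 12 of the 23 changed sign on the values as deposited or after quantile normalization.

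Mutant against wild-type KDM5A is the direct test of a difference between the plasmids, and none of the 37 genes passed it in limma, beside 0.0562% of all genes (10 of 17779), 0.0337% higher and 0.0225% lower. At an unadjusted p under 0.05, 15 were higher and 1 lower, beside 20.2% of all genes in either direction. The median was 0.11, but -0.11 on the values as deposited and -0.03 after quantile normalization. Relative to the median of all genes under the same scaling, the median of the 37 was 0.11 in the main fit. As deposited this was 0.08, and after quantile normalization -0.0039. AHSA1 had the lowest adjusted p (log2 fold change 0.52, SE 0.11, adjusted p = 0.0926), then PFDN5 (log2 fold change 0.54, SE 0.12, adjusted p = 0.0937) and HSPA9 (log2 fold change 0.23, SE 0.06, adjusted p = 0.0956). TCP1 was the 1 gene that was lower (log2 fold change -0.28, SE 0.08, adjusted p = 0.126). Its mutant libraries stood at 419.6 and 403 and its wild-type libraries at 479.6, 522 and 494. Leaving out either parental library, which only adds to the estimate of spread here, let 5 genes pass as higher and 1 as lower, and leaving out the second mutant library let 1 gene pass. The values as deposited gave 2 lower genes. Genes that passed with 1 plasmid and not with the other are therefore not shown to differ between plasmids. The mutation is also not the only difference between these groups. KDM5A itself had a mean of 23081 with the mutant and 15096 with the wild-type plasmid, and the mutant libraries had the higher ribosomal protein share. In this design these differences cannot be told apart from the mutation.

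The last comparison set parental cells against knockout cells, both with empty vector. None of the 37 genes was higher and 2 were lower in parental cells, CDC37 and BAG1, beside 8.94% of all genes that passed, 4.09% higher and 4.84% lower. The median was -0.06 against 0.00. The parental libraries lay wholly below the knockout ones in 13 genes and wholly above in 1, PFDN5, beside 21.9% and 20.6% of all genes. CDC37 (chromosome 19, 10391133 to 10420121, a locus that overlaps PDE4A) was 253 and 243 in parental and 316, 331 and 316 in knockout cells (log2 fold change -0.37, SE 0.05, adjusted p = 0.00306). BAG1, an exchange factor of HSP70 (chromosome 9, 33247819 to 33264763), was 40.3 and 38.0 against 51.8, 54.2 and 53.7 (log2 fold change -0.43, SE 0.09, adjusted p = 0.0225). Both passed under all 3 scalings, and the groups did not overlap in either gene. With 1 library left out CDC37 always passed, while the count was 1 without parental library 2 or without any empty-vector library. It was 4 without either mutant library, and without parental library 1 it was 5, of which 2 were higher.

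No HSP90 or TRiC gene passed between parental and knockout cells on the scaled values. After quantile normalization HSP90AB1 passed as lower in parental cells, at -0.19. On the scaled values the changes were as follows. HSP90AB1 was 1736 and 1979 in parental cells (log2 fold change 0.01, SE 0.08, adjusted p = 0.954) and HSP90AA1 was 945 and 1130.1 (log2 fold change 0.08, SE 0.10, adjusted p = 0.655). TRiC had a median of -0.04, from -0.25 to 0.06, and none of the 8 passed. For HSPD1 the parental values were 715 and 835 and for HSPE1 244 and 271, and neither passed.

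The 2 parental libraries also differed from each other in these genes. Parental library 2 was above library 1 in 24 of the 37 genes, with a median difference of 0.11 on the log2 scale against -0.01 for all genes. The prefoldin genes led, with PFDN4 at 1.05 (77.3 and 161), PFDN5 at 0.49 (341 and 479.9) and PFDN2 at 0.47 (241 and 335). AHSA1 and HSP90AA1 were each 0.26 higher and DNAJA1 0.23 higher, while TCP1 was -0.30 and PFDN6 -0.29. Across the 37 genes this difference between libraries of 1 group and the change from empty vector to mutant KDM5A, which share no library, had a Pearson r of 0.653 and a Spearman rho of 0.661. Across 17778 genes these were 0.234 and 0.274. With the change from wild-type to mutant KDM5A, r over the 37 genes was 0.825 and rho 0.820, and over 17778 genes 0.241 and 0.310. With the change from empty vector to wild-type KDM5A they were 0.229 and 0.237 over the 37 genes, and 0.033 and 0.050 over 17778 genes. Genes are not independent replicates, and the libraries that are high on both axes share the higher ribosomal protein share given above. Its part in the result was not tested.

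**Figure D5:**
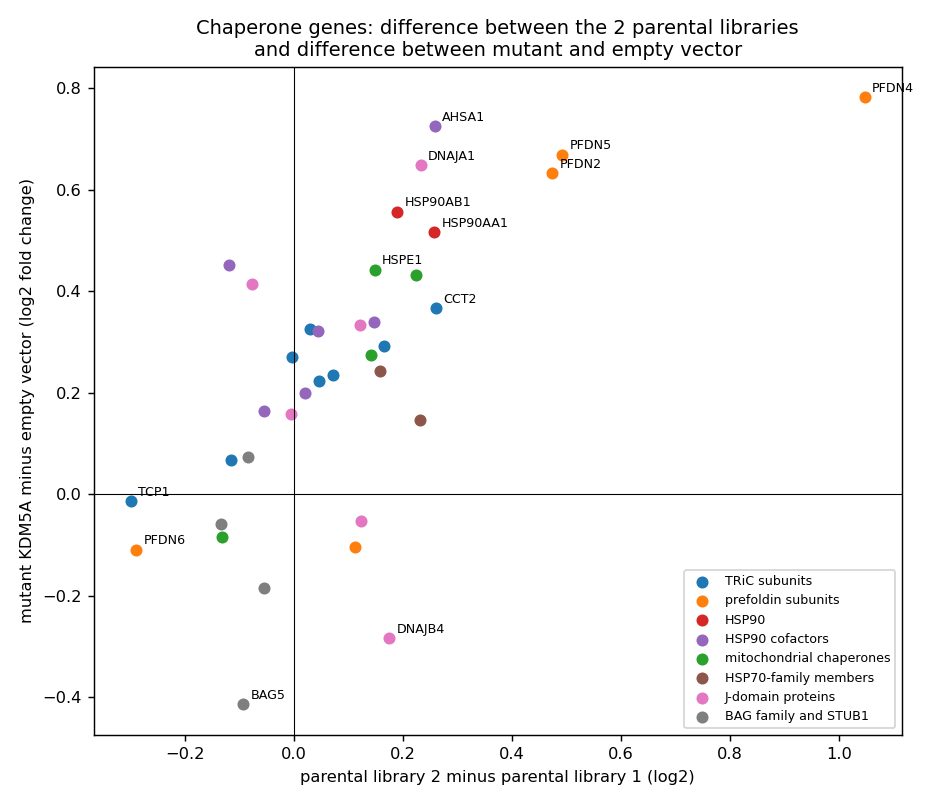
Difference between the 2 parental libraries (library 2 minus library 1, horizontal axis) and change from empty vector to mutant KDM5A (vertical axis), both on the log2(scaled value + 1) scale, for the 37 chaperone genes coloured by role. PFDN4, PFDN5 and PFDN2 lie at the upper right and TCP1 and PFDN6 at the left, with Pearson r 0.653 and no library shared between the axes.

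Other folding genes were read from lists set by background knowledge, with earlier results of these data known. Of 14 endoplasmic reticulum chaperones 13 rose with wild-type KDM5A (median 0.43) and 13 with mutant KDM5A (median 0.49), and 6 to 8 of them passed as higher, none as lower, under the other scalings. HSPA5, the central HSP70 of that compartment, rose by 0.57 and 0.74, and the disulfide isomerase PDIA4 by 0.46 and 0.49. Of 11 inducible heat shock and HSF genes 7 rose with wild-type and 8 with mutant KDM5A, and 6 to 8 under the other scalings. HSPA1A had means of 121 with empty vector, 496 with wild-type and 902 with mutant KDM5A (2.03 and 2.89 on the log2 scale), although how reads shared with its near-identical copy HSPA1B were counted is not stated. DNAJB1, the J-domain partner of inducible HSP70, rose by 0.80 and 1.04. The 37 genes thus moved by less than the inducible list, by 0.14 and 0.27 in the median against 0.40 and 0.57, a difference that was not tested.

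Cytosolic lists close to TRiC and HSP90 had more genes pass with the mutant than with the wild-type plasmid, a difference that was not tested. The same held for all genes tested, of which 2.52% rose with wild-type and 9.48% with mutant KDM5A. Among genes with a mean of at least 100 these shares were 10.7% and 44.4%. Of 17 other TRiC, prefoldin and tubulin cofactor genes 1 rose with wild-type KDM5A, the tubulin cofactor TBCB (0.27), and 5 rose with mutant KDM5A, but as deposited 1 was higher and 7 lower. Of 13 actin and tubulin genes, the main clients of TRiC, 3 rose with wild-type and 8 with mutant KDM5A, while as deposited the mutant gave 2 higher and 3 lower. TUBB2A had 0.42 and 0.76, and ACTB had 0.24 and 0.39, the latter -0.18 after quantile normalization. Of 18 other cofactors of HSP90 and HSP70 2 and 5 rose, among them PPID, an immunophilin of HSP90, at 0.68, and ST13, the HSP70-interacting protein, at 0.59 with mutant KDM5A. As deposited, mutant KDM5A gave 2 higher and 6 lower of these 18.
Among 23 other J-domain proteins 4 rose with wild-type KDM5A, DNAJB1, DNAJB9, DNAJB11 and DNAJC3, which are also counted in the inducible or endoplasmic reticulum lists, and the median of the 23 was -0.03. With mutant KDM5A 5 rose, these and DNAJC19, which is also in the mitochondrial list, and 4 fell, or 3 and 12 as deposited. Among 15 other mitochondrial chaperones and proteases 2 rose and 1 fell with wild-type KDM5A, and 5 rose and 2 fell with mutant KDM5A, or 1 and 8 as deposited. GRPEL1, the exchange factor of HSPA9, rose by 0.35 and 0.58. The matrix protease LONP1 changed by -0.26 and -0.35 and, in parental against knockout cells, by -0.51. None of the genes in these 7 lists passed between mutant and wild-type KDM5A, but on the values as deposited 2 inducible heat shock genes passed as higher, and 2 of the TRiC and prefoldin list, 1 cofactor, 6 J-domain and 5 mitochondrial genes passed as lower.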

How the data were processed

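RNA of 10 libraries was analysed. The authors deposited 1 table per library with log2 FPKM values for 60141 loci, which hold log2 of a value plus 1 and, on the linear scale, sum to 999975 to 1000008 per library. Per the submitters' processing notes the tools included Cufflinks 2.2.1, STAR 2.7.1a, GATK 4.1.2 and Picard, with GRCh38 as the build. Annotation release, strand setting and order of steps are not given in the sources used here. No counts were analysed, so depth and counting precision are unknown.

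Values were returned to the linear scale, summed by symbol and divided by a median-ratio factor over 13651 genes that reached 1 in all libraries. The 17779 genes whose scaled value reached 1 in 2 or more libraries were tested with limma 3.58.1 in R 4.3.3 (lmFit, contrasts.fit, eBayes with trend) on log2(scaled value + 1), 1 fit of 10 libraries and 4 groups, with 6 residual and 2.99 prior degrees of freedom, two-sided, Benjamini-Hochberg over all genes of a comparison. On simulated data with 17779 genes, changes of 0.5 and 1 on the log2 scale were recovered in 42% and 82% of genes for wild-type KDM5A against empty vector and in 33% and 67% for mutant KDM5A.

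The members and lists were chosen with earlier results of these data known. Genes given by library were the TRiC subunits, HSP90AA1, HSP90AB1, HSPD1, HSPE1 and up to 8 largest changes that passed in each comparison, and from other lists up to 4 genes of smallest p. BAG5, DNAJB4, PFDN4 and others near the threshold were named after their values were seen. Other settings were the values as deposited, quantile normalization, other pseudocounts and filters, array weights, the compared groups alone, a replicate block, an adjusted p under 0.1, the highest locus per symbol and each library left out, and, added after seeing the data, the ribosomal protein share as a covariate.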

Additional observations from a re-analysis of the deposited data

How the results depend on the processing

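The number of the 37 genes that passed with wild-type KDM5A against empty vector was 3. It was 1 after quantile normalization and 1 with no filter, 6 with a mean of at least 5, 15 with array weights, 16 with only the compared groups, 9 at an adjusted p under 0.1, 16 without the mutant libraries and parental library 2, 6 with the ribosomal protein share as a covariate and 0 to 7 with 1 library left out. For mutant KDM5A against empty vector it was 23, with 16 as deposited (5 higher and 11 lower), 5 after quantile normalization, 15 with only the compared groups, 0 with the ribosomal protein share as a covariate and 9 to 25 with 1 library left out. For mutant against wild-type KDM5A 0 became 2 as deposited, 2 with only the compared groups, 3 at an adjusted p under 0.1 and 0 to 6 with 1 library left out. For parental against knockout cells 2 became 5 as deposited, 4 after quantile normalization, 1 with no filter, 7 at an adjusted p under 0.1, 0 with the covariate (7 at an unadjusted p under 0.05) and 1 to 5 with 1 library left out. The cause of these shifts was not tested. For most of these settings the share of all genes that passed is not given here, and that share can move as well. In wild-type KDM5A against empty vector it was 4.54% in the main fit. It was 9.51% once parental library 2 and both mutant libraries were dropped. Counts under the other settings are therefore not shown to be particular to the 37 genes.

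Genes that rose with mutant KDM5A and changed sign as deposited were CCT3 (-0.106), CCT4 (-0.0133), CCT5 (-0.0483), CCT7 (-0.0693), DNAJB6 (-0.0052), FKBP4 (-0.139), HSPA14 (-0.0923), HSPA9 (-0.0668), PTGES3 (-0.0182) and STIP1 (-0.0013). After quantile normalization CCT3 (-0.137), CCT5 (-0.0662), CCT7 (-0.11), HSP90AA1 (-0.0498), HSPA9 (-0.0469), HSPD1 (-0.0821) and PTGES3 (-0.0496) changed sign. With replicate numbers as a block the counts were 0 for wild-type (15 at an unadjusted p under 0.05), 9 for mutant, and 1 for parental cells. Libraries share only a number: deviations of same-numbered libraries correlated between -0.045 and 0.051, and 2 of 6 libraries in the wild-type comparison correlated best with their own number.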
